A study of Mus musculus with 8 samples.

Results

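Dbp, Tef, Hlf and Nfil3 form a small group of clock output transcription factors, and they are described here in mouse lung as 4 of the 52636 genes counted by RNA sequencing. The genes were taken by symbol. They had been chosen from their levels in these same 8 libraries, with the comparison of the COPD mice model against control mice in view, so their values in that comparison are given as a description without a test. All 4 passed the filter on low counts and were among the 20546 genes tested.

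The lungs came from male C57BL/6 mice in 4 groups with 2 libraries each. Into the trachea of the COPD mice model went porcine pancreatic elastase (PPE), which digests elastic fibres and leaves emphysema, and then lipopolysaccharide (LPS), a bacterial cell wall component that provokes inflammation. Control mice received PBS in place of both. Within each treatment, 1 group ate a control diet and 1 group ate a diet containing 2% TJ-41, the Japanese herbal medicine hochuekkito. The diets began at 8 weeks of age, PPE or PBS followed at 10 weeks, and LPS or PBS came from 12 weeks on. All groups are labelled as wild type. The age and the hour of day at which the lungs were taken for RNA, and whether a library is 1 mouse, are not given in the sources used here, so the p-values measure only the spread between these libraries. The libraries held 18767295 to 20888042 counts, and the summed markers of alveolar, airway, endothelial and immune cells were well above 0 in every library.

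Dbp, Tef and Hlf are the proline- and acidic amino acid-rich (PAR) members of the basic leucine zipper (bZIP) family. They bind D-box elements and activate transcription, and they link the circadian clock to detoxifying enzymes and metabolism in liver, kidney and other tissues. In the textbook clock, the BMAL1-CLOCK dimer drives Dbp through E-boxes, whereas Nfil3, also called E4BP4, is repressed by the REV-ERB receptors through ROR elements. Nfil3 occupies the same D-box sites as a repressor, so the PAR factors and Nfil3 act on shared targets in opposite directions and are at their highest at opposite times of day. Nfil3 is also known as a factor that natural killer cells and other innate lymphoid cells need for their development.

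The promoters are shown because these genes are classical targets of E-boxes and ROR elements. Windows running from 250 bases before to 50 bases after the RefSeq start (build GRCm38.p6) were available for all 4 genes, with a pair of windows for Tef. They were searched on both strands for the E-box CACGTG, the D-box TTATGTAA or TTACGTAA, the ROR element core TAGGTCA and the cyclic AMP response element TGACGTCA, and the letters searched were settled with the sequences in view. The short stretches below hold every match, with the matched letters in capitals and 5′ to 3′ in the direction of the gene. The stretch of Dbp is the part of its window that lies in no annotated exon.
Tef, first start, chr15:81802534-81802561, plus strand: gtgctgtggctcCACGTGctgcagctgg
Tef, second start, chr15:81811264-81811291, plus strand: cacctggcccagCACGTGtctacatcgt
Hlf, chr11:90390909-90390938, minus strand: cggtgcgggcccTGACGTCActcttgtcag
Nfil3, chr13:52981035-52981063, minus strand: ggcgctcggaacTGACCTActaacacaca
Dbp, chr7:45704997-45705087, plus strand: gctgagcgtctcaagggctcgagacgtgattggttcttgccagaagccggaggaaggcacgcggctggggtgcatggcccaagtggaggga

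Each Tef window held 1 E-box, which lay 127 bases before the first start and 138 bases before the second. The E-box of the first start lies inside an exon that GENCODE annotates further upstream. Hlf held 1 cyclic AMP response element, 9 bases before its start. Nfil3 held the ROR element core on the opposite strand, read in capitals as TGACCTA, 12 bases before its RefSeq start and inside a GENCODE exon. No searched motif was present in the window of Dbp, and no D-box was present in any of the windows. Among 32851 mouse promoter windows of the same length, 7.15% held the E-box, 1.06% the D-box, 2.61% the ROR element core and 1.79% the cyclic AMP response element. These matches describe letters in a window and do not show that a factor binds there.

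Dbp (ENSMUSG00000059824, chr7:45705088-45710203, plus strand) activates D-box genes and is the PAR factor with the widest daily swing in many tissues. Its level in control mice on the control diet was 15.6 and 21.3 CPM (counts per 1000000 counts of the library, scaled by TMM), and on the TJ-41 diet it was 8.76 and 9.52 CPM. In the COPD mice model it was 194 and 185 CPM on the control diet and 193 and 200.3 CPM on the TJ-41 diet. Every library of the model lay far above every library of the control mice, and among the control mice both TJ-41 libraries lay below both control diet libraries. The group means were 18.4 ± 4.03 and 9.14 ± 0.534 CPM in control mice on the control and TJ-41 diets, and 189 ± 6.53 and 197 ± 5.15 CPM in the model (SD, n = 2 each). Under the control diet the model exceeded control mice 10.3-fold, or 3.36 on the log2 scale, with a standard error of 0.20. On the TJ-41 diet the difference was 21.5-fold, or 4.43 on the log2 scale, with a standard error of 0.21. The exons of Dbp share 539 bases, 18.0% of their length, with the antisense gene Sphk2, a sphingosine kinase, and the strand setting of the counting is not given in the sources used here. Sphk2 had 351 to 645 counts in every library, with the lowest and the highest value both in the model on the control diet, while Dbp went from 171 to 3918 counts.

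Tef (ENSMUSG00000022389, chr15:81802421-81826863, plus strand), thyrotroph embryonic factor, is a D-box activator named after the pituitary cells in which it was found. Its level was 126 and 170.5 CPM in control mice on the control diet and 127 and 143 CPM on the TJ-41 diet. The model had 439 and 453 CPM on the control diet and 476 and 490.2 CPM on the TJ-41 diet. The 4 control libraries overlapped between diets and all lay below the 4 model libraries, among which both TJ-41 libraries stood above both control diet libraries. The means were 148 ± 31.5 and 135 ± 11.4 CPM in control mice on the control and TJ-41 diets, and 446 ± 9.73 and 483.1 ± 9.996 CPM in the model (SD, n = 2 each). Against control mice, the model was 3.01-fold higher on the control diet (log2 fold change 1.59, standard error 0.19) and 3.58-fold higher on the TJ-41 diet (log2 fold change 1.84, standard error 0.19). Tef shares 193 exon bases with the antisense gene Gm17597, which had 3 to 15 counts in each library, where Tef had 2408 to 9588.

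Hlf (ENSMUSG00000003949, chr11:90336536-90390895, minus strand), hepatic leukemia factor, is the PAR factor best known from a leukaemia fusion gene and from blood stem cells. It was measured at 18.9 and 19.9 CPM in control mice on the control diet and at 18.7 and 20.2 CPM on the TJ-41 diet. In the model it stood at 75.2 and 91.7 CPM on the control diet and at 76.1 and 74.3 CPM on the TJ-41 diet. The control mice of both diets were nearly level, and the model libraries were all higher, with 1 control diet library above the rest. Mean levels were 19.4 ± 0.709 and 19.4 ± 1.11 CPM in control mice on the control and TJ-41 diets, and 83.5 ± 11.6 and 75.2 ± 1.22 CPM in the model (SD, n = 2 each). The model was 4.30-fold higher on the control diet (log2 fold change 2.11, standard error 0.17) and 3.87-fold higher on the TJ-41 diet (log2 fold change 1.95, standard error 0.17). No other gene shares exon bases with Hlf or with Nfil3.

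Nfil3 (ENSMUSG00000056749, chr13:52967209-52981073, minus strand), the D-box repressor, had the opposite pattern. Its level was 15.9 CPM in both libraries of control mice on the control diet, with 305 and 307 counts, and 15.0 and 17.6 CPM on the TJ-41 diet. The model had 6.26 and 8.15 CPM on the control diet and 5.43 and 5.57 CPM on the TJ-41 diet. All model libraries were below all control libraries, and within the model both TJ-41 libraries were below both control diet libraries. TJ-41-fed control mice had a mean of 16.3 ± 1.85 CPM, and the model had means of 7.21 ± 1.34 CPM on the control diet and 5.499 ± 0.104 CPM on the TJ-41 diet (SD, n = 2 each). Nfil3 was 2.21-fold lower in the model on the control diet (log2 fold change -1.15, standard error 0.22) and 2.95-fold lower on the TJ-41 diet (log2 fold change -1.56, standard error 0.23).

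**Figure D1:**
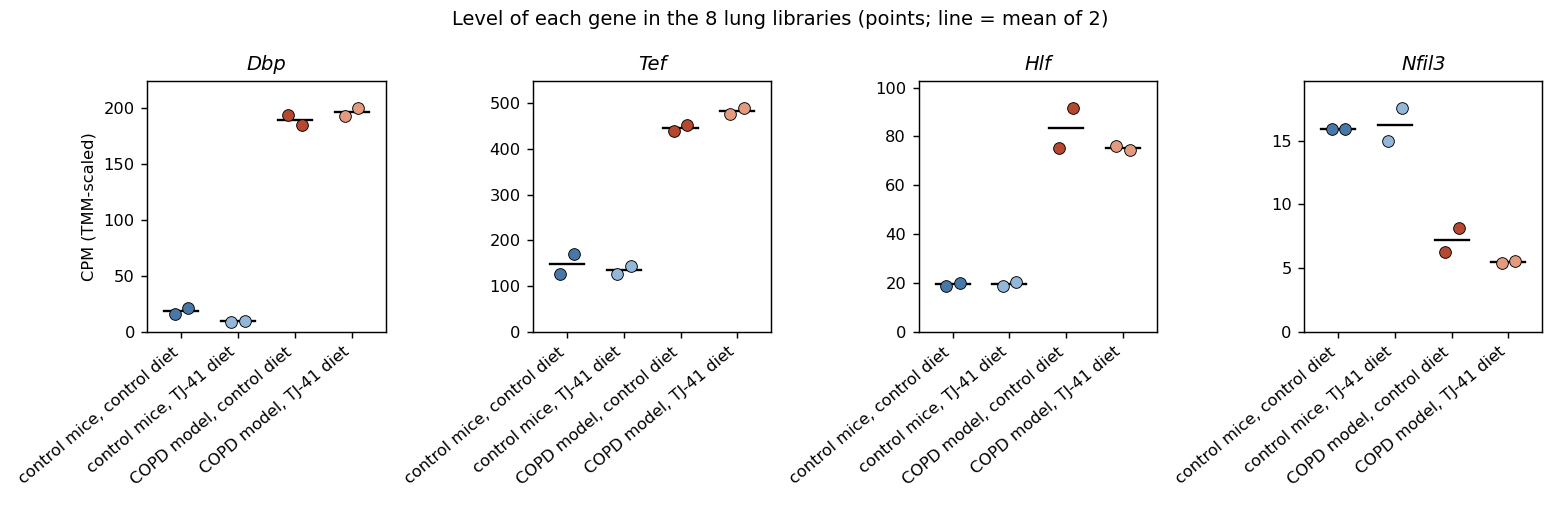
Levels of Dbp, Tef, Hlf and Nfil3 in the 8 lung libraries, in CPM on axes that start at 0, with 1 panel per gene, 1 point per library and a line at the mean of the 2 libraries of a group. Dbp, Tef and Hlf were higher and Nfil3 was lower in every library of the COPD mice model than in every library of control mice.

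A gene was called when its false discovery rate was under 0.05 and its log2 fold change was beyond 1. With the control diet, 3 of the 4 genes (Dbp, Tef and Hlf) met these limits, where 0.122% of all genes tested did, 0.102% in the higher and 0.0195% in the lower direction. On the TJ-41 diet, the same 3 genes met them, where 0.0779% of all genes tested did, 0.0584% higher and 0.0195% lower. By edgeR, Nfil3 met the fold change limit on both diets but not the false discovery rate, whereas DESeq2 called all 4 genes on both diets. Of the 20546 genes tested, DESeq2 called 174 on the control diet and 125 on the TJ-41 diet. Nfil3 was also called by edgeR on the TJ-41 diet with library size alone, with every gene of at least 1 count and with only the 2 groups compared. On the control diet with only the 2 groups compared, Dbp and Hlf were called and Tef was not. Since the genes had been chosen on this contrast, nothing is read from these counts. Dbp met the limits in every alternative analysis, whereas the count on the control diet was 1 gene without replicate 1 of the control mice on the control diet and 2 genes without any 1 of the other control libraries. On the TJ-41 diet the count was 1 gene, Dbp, without either TJ-41 library of the control mice or without replicate 1 of the TJ-41 model.

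Because the 4 genes differ in length, their levels can be compared only per kilobase of exon. In control mice on the control diet, Tef was the highest at 18.8 ± 4.0 CPM per kilobase, followed by Nfil3 at 7.87 ± 0.00491, Dbp at 6.16 ± 1.35 and Hlf at 2.90 ± 0.106. In the model on the control diet, Dbp at 63.2 ± 2.18 CPM per kilobase and Tef at 56.7 ± 1.24 were followed by Hlf at 12.5 ± 1.74 and Nfil3 at 3.56 ± 0.662 (SD, n = 2 each). Nfil3 thus went from the second place among the 4 genes in control mice to the last in the model.

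Of the summed CPM per kilobase of the PAR factors, Dbp made up 21.7% and 22.4% in control mice on the control diet, and 13.4% and 13.0% on the TJ-41 diet. In the model its share was 49.1% and 46.4% on the control diet and 47.3% and 47.7% on the TJ-41 diet. Tef supplied most of the sum in control mice, with 66.6% to 74.6%, and 42.3% to 44.4% in the model. The share of Hlf was 9.37% to 12.8% in control mice and 7.93% to 10.3% in the model, with ranges that overlap.

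The ratio of the summed activators to Nfil3, both per kilobase, was 3.05 and 4.04 in control mice on the control diet and 2.96 and 2.81 on the TJ-41 diet. It was 42.7 and 33.0 in the model on the control diet and 50.9 and 51.0 on the TJ-41 diet. The libraries of the diets did not overlap in either treatment, with the TJ-41 libraries lower in control mice and higher in the model. In control mice the nearest values of the diets were 2.96 and 3.05. With 2 against 2 libraries, a two-sided exact permutation p cannot be below 0.333, so no diet effect on the ratio is read from this. This ratio combines values that chose the genes, so it has no test between the model and control mice.

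**Figure D2:**
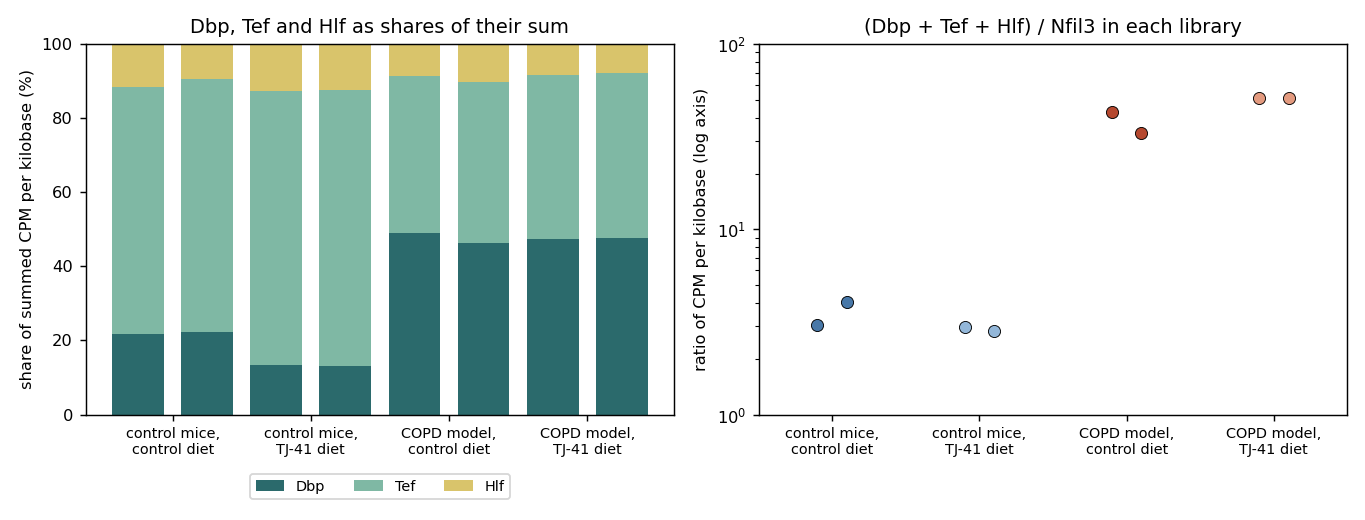
Left, the share of Dbp, Tef and Hlf in their summed CPM per kilobase, in percent, as 1 stacked bar per library. Right, the ratio of that sum to Nfil3 per kilobase on a log axis, with 1 point per library, where control mice lay between 2.81 and 4.04 and the COPD mice model between 33.0 and 51.0.

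Ordered by mean level, Dbp went from control mice on the TJ-41 diet to control mice on the control diet, the model on the control diet and the model on the TJ-41 diet, and the highest mean was 21.5 times the lowest. Only the last 2 groups of that order had overlapping libraries. For Tef the order was the same with a ratio of 3.58, and only the control mice of the 2 diets overlapped. Hlf had a ratio of 4.31, with overlap between the diets in control mice and again in the model. The order of Nfil3 ran from the model on the TJ-41 diet through the model on the control diet to the control mice, with a ratio of 2.96 and overlap between the control mice of the 2 diets.

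The diet comparisons ask whether TJ-41 altered the levels of these genes. They use the same 8 libraries from which the genes were chosen, so their p-values are not independent of that choice. In control mice, Dbp had a log2 difference of -1.01 between the TJ-41 and the control diet, with a standard error of 0.19 and a 95% interval of -1.44 to -0.59. Both TJ-41 libraries were lower than both control diet libraries. The unadjusted p was 0.00044, and the adjusted p was 0.996 by edgeR's quasi-likelihood F test after Benjamini-Hochberg correction computed across the whole table, so the difference did not pass. DESeq2 gave the same difference an adjusted p of 0.0372, and over all the alternatives it ran from 0.0372 to 1.0 with a log2 difference between -1.22 and -0.78.

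For Tef, Hlf and Nfil3 in control mice, the libraries of the diets overlapped. The log2 differences were -0.14 for Tef (95% interval -0.56 to 0.29), 0.0034 for Hlf (-0.37 to 0.38) and 0.028 for Nfil3 (-0.46 to 0.52), with adjusted p of 0.996, 0.999 and 0.998 by edgeR's quasi-likelihood F test after Benjamini-Hochberg correction. None of the 4 genes passed, where 0% of all genes tested did. Under an unadjusted p of 0.05 was 1 of them, Dbp, beside 1.64% of all genes tested. Of the 4, DESeq2 called Dbp alone, where it called 10 of the 20546 genes tested.

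In the COPD mice model the TJ-41 diet gave log2 differences of 0.056 for Dbp (95% interval -0.34 to 0.45), 0.12 for Tef (-0.31 to 0.54) and -0.15 for Hlf (-0.51 to 0.21). The difference of Nfil3 was -0.39, with a 95% interval of -0.90 to 0.12 and an unadjusted p of 0.12. Adjusted p values were 0.991 or 0.992 by edgeR's quasi-likelihood F test after Benjamini-Hochberg correction. Thus 0 of the 4 genes passed, where 0.00487% of all genes tested did. Under an unadjusted p of 0.05 were 0 of the 4, beside 4.1% of all genes tested. DESeq2 called 0 of the 4, where it called 14 genes in all. Although the libraries of Tef and of Nfil3 did not overlap between the diets, 2 against 2 libraries cannot give a two-sided exact permutation p below 0.333.

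The diet effect in the model minus that in control mice was 1.07 on the log2 scale for Dbp, with a standard error of 0.26 and a 95% interval of 0.49 to 1.65. Its unadjusted p was 0.00245 and its adjusted p 0.999 by edgeR's quasi-likelihood F test after Benjamini-Hochberg correction. The corresponding values were 0.25 for Tef, -0.15 for Hlf and -0.42 for Nfil3, with 95% intervals that include 0 and adjusted p of 0.999. None of the 4 passed, where 0% of all genes tested did, and DESeq2 called none of them, where it called 17 genes in all.

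**Figure D3:**
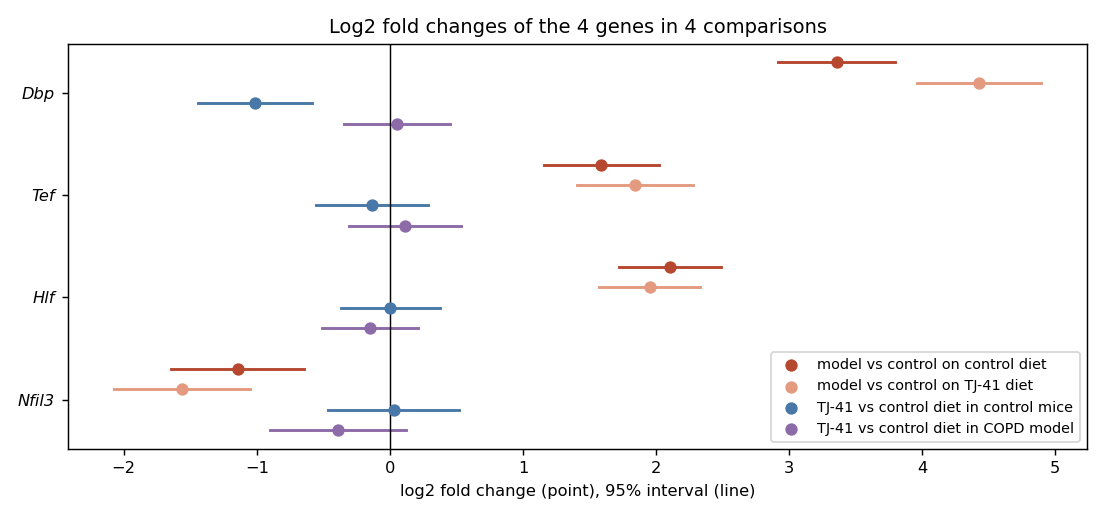
Log2 fold changes of Dbp, Tef, Hlf and Nfil3 for the COPD mice model relative to control mice under either diet and for the TJ-41 against the control diet in each treatment, with points for estimates and lines for 95% intervals. Intervals of the model comparisons lie away from 0 for all 4 genes, which were chosen on those values, and of the 8 diet intervals 1 excludes 0, that of Dbp in control mice (-1.44 to -0.59).

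Upstream of these factors stands the core clock, for which a list of 20 genes was used, 19 of them tested. This list and the gene lists after it were written with earlier results of these data known. Their p-values therefore describe these libraries and give no independent support. In the model against control mice, 3 of the 19 were called higher and 2 lower on each diet. That is 26.3% of the list, beside 0.122% and 0.0779% of all genes tested on the control and TJ-41 diets. The median log2 fold change of the list was 0.73 on the control diet and 0.45 on the TJ-41 diet, beside 0.0074 and -0.0016 for all genes tested. On both diets 15 of the 19 genes had positive values, where 51.0% and 49.8% of all genes tested did on the control and TJ-41 diets.

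Arntl, which encodes BMAL1, the activator that drives Dbp, was measured at 44.3 and 36.8 CPM in control mice and 7.56 and 2.87 CPM in the model on the control diet. It fell by 2.96 on the log2 scale on that diet (adjusted p = 0.0308) and by 2.90 on the TJ-41 diet (adjusted p = 0.0311; edgeR's quasi-likelihood F test after Benjamini-Hochberg correction, here and for all clock genes). Npas2, a CLOCK relative that pairs with BMAL1, fell by 2.51 (adjusted p = 0.0465) and by 2.90 (adjusted p = 0.0256). Both activators were thus lower in the libraries in which Dbp was higher.

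Among the repressors of that dimer, Bhlhe41, also called DEC2, rose by 2.22 on the control diet (adjusted p = 0.00163) and by 2.32 on the TJ-41 diet (adjusted p = 0.00207) on the log2 scale. Its level went from 8.88 to 9.63 CPM over the control libraries to 38.7 to 48.0 CPM over the model libraries. Per3, a period gene, rose by 1.97 (adjusted p = 0.0160) and by 2.09 (adjusted p = 0.0110). Per2 rose by 1.98 on the control diet (adjusted p = 0.0465), and its log2 difference on the TJ-41 diet was 1.82 (adjusted p = 0.0803). On each diet DESeq2 called the 5 clock genes that edgeR called there and further ones, namely Bhlhe40 and Nr1d2 on both diets and Per2 on the TJ-41 diet.

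Nr1d1 encodes REV-ERB alpha, a repressor of Nfil3. It rose by 1.90 on the log2 scale on the TJ-41 diet (adjusted p = 0.0144, edgeR's quasi-likelihood F test after Benjamini-Hochberg correction), and its difference on the control diet was 0.90 (adjusted p = 0.276). Its levels were 96.7 and 140.0 CPM in control mice on the control diet, 81.1 and 78.6 CPM on the TJ-41 diet, and 239 and 202 against 318 and 276 CPM in the model. Like Dbp, Nr1d1 had lower libraries on TJ-41 in control mice, and its libraries on TJ-41 in the model were higher. By edgeR, no core clock gene was called in either diet comparison. In control mice and in the model, 1 and 0 of the 19 were under an unadjusted p of 0.05. Over all genes tested, 1.64% and 4.1% were.

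The clock calls depended on single libraries and on the groups in the fit. With only the 2 groups compared, Bhlhe41 alone was called on the control diet and 8 genes were called on the TJ-41 diet. Without replicate 1 of the control mice on the control diet, 0 of the 19 genes were called on the control diet, and without either TJ-41 library of the control mice 1 was called, Bhlhe41. On the TJ-41 diet, 0 were called without either TJ-41 library of the control mice, and 1, Bhlhe41, without replicate 1 of the model on that diet. Without replicate 1 of the model on the control diet, 10 were called on the control diet, a setting in which the count over all genes went from 25 to 1343.

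**Figure D4:**
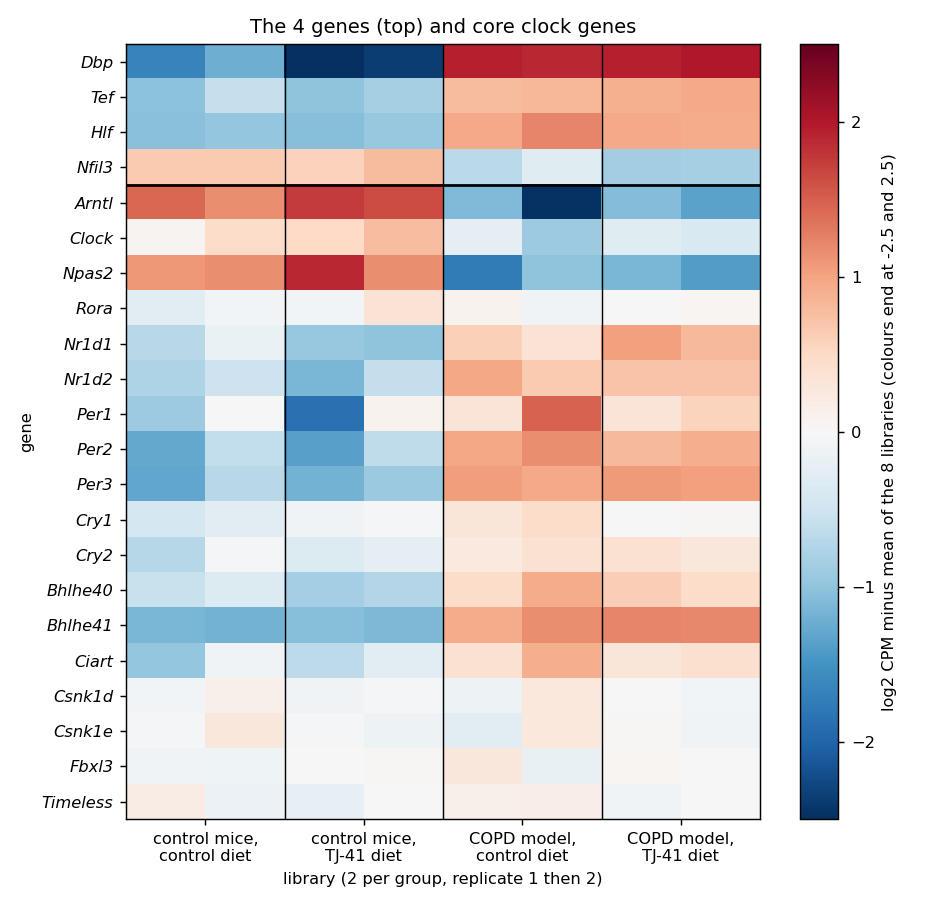
Log2 CPM minus the mean of the 8 libraries for the 4 genes (top rows) and 18 of the 19 tested core clock genes, with 1 column per library and colours that end at -2.5 and 2.5. Arntl, Clock and Npas2 are lower in the model libraries, as is Nfil3, and Dbp, Tef, Hlf, Per2, Per3 and Bhlhe41 are higher in them.

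Downstream, 9 genes known as targets of the PAR factors in liver and other organs were listed, of which 7 were tested. Cyp7a1, the rate-limiting enzyme of bile acid synthesis, had no counts in any library, and Nr1i3, the xenobiotic receptor CAR, was too low to be tested. On each diet 6 of the 7 had positive values, beside 51.0% and 49.8% of all genes tested, with medians of 0.39 and 0.51 on the log2 scale, and 0 were called by edgeR's quasi-likelihood test (3 and 4 at an unadjusted p under 0.05, where 7.7% and 6.56% of all genes tested were). DESeq2 called Cyp2a5 on both diets and Cyp2a4 on the control diet. Cyp2a5, a cytochrome P450 and the largest difference of the list, had 24.3 and 20.9 CPM in control mice and 69.9 and 155 CPM in the model on the control diet. Its log2 difference was 2.32 (adjusted p = 0.0656, edgeR's quasi-likelihood F test after Benjamini-Hochberg correction) and 1.83 on the TJ-41 diet. Its near-identical neighbour Cyp2a4 could share its reads, so both values are uncertain. Ppara, a lipid-sensing nuclear receptor, had the lowest value on the control diet at -0.25.

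Another 10 genes that follow daily or hormonal rhythms in many tissues were all tested, and edgeR's quasi-likelihood test called 0 of them, with 6 on the control diet and 4 on the TJ-41 diet at an unadjusted p under 0.05, beside 7.7% and 6.56% of all genes tested. DESeq2 called Tspan4 on both diets, and Usp2, a deubiquitinase, and Wee1, a cell cycle kinase, on the control diet. Their median log2 differences were 0.87 on the control diet and 0.10 on the TJ-41 diet, with 8 and 5 of the 10 positive, beside 51.0% and 49.8% of all genes tested. Tspan4, a tetraspanin, had the largest, 1.52 on the control diet (adjusted p = 0.109, edgeR's quasi-likelihood F test after Benjamini-Hochberg correction) and 1.84 on the TJ-41 diet. Lonrf3 had the lowest, -0.76 on the control diet.

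The C/EBP factors are bZIP proteins whose sites resemble the D-box. Of 6 listed, 5 were tested and 0 called by either tool (0 and 1 at an unadjusted p under 0.05 by edgeR), with medians of 0.14 and 0.22, from Ddit3 at -0.14 to Cebpb at 0.79 on the control diet. For the natural killer and innate lymphoid cell genes, the other setting in which Nfil3 is known, 14 of 14 were tested and 0 called by either tool (2 on each diet at an unadjusted p under 0.05 by edgeR). Their medians were -0.012 on the control diet and -0.22 on the TJ-41 diet, with the lowest value on the control diet, -0.47, for Klrb1c, the natural killer receptor NK1.1. Over all genes tested, 7.7% and 6.56% were under an unadjusted p of 0.05 by edgeR on the control and TJ-41 diets. Each list from the PAR factor targets onward had called genes on the control diet when replicate 1 of the model on that diet was left out. That fit left 1 library in the group, so nothing is read from it.

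Genes whose profile was most like that of each factor were found as those with the smallest root mean square distance between log2 CPM profiles over the 8 libraries, each centred on its own mean. For Tef, whose own profile had a root mean square of 0.87, these were Per3 (distance 0.176), the meiosis gene Tex11 (0.190), Nr1d2 (0.194), Hlf (0.212) and Per2 (0.217). For Hlf they were Bhlhe41 (0.174), Gm45819 (0.174), Per3 (0.182), Tef (0.212) and Per2 (0.219), against a root mean square of 1.01 for its own profile. Tef and Hlf were thus each among the 5 nearest of the other.

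Dbp had no gene so close. Its own root mean square was 1.98, and its nearest were the antibody variable segments Ighv1-9 (distance 0.823), Igkv16-104 (0.897) and Ighv12-3 (0.905), then Bhlhe41 (0.911) and the segment Igkv6-15 (0.915). The nearest to its mirror image were closer, namely Spon2 (0.483), an extracellular matrix protein, then Arntl (0.659) and Npas2 (0.708). The antibody segments differed from Dbp in control mice, where Ighv1-9 had a mean of 0.859 CPM on the control diet and 1.99 CPM on the TJ-41 diet, while Dbp had its lower value on the TJ-41 diet.

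Nfil3 was nearest to the predicted gene Gm15418 (distance 0.154), Gm10619 (0.249), Leo1 (0.249), Il22ra2 (0.254) and Vgll3 (0.260), with 0.69 for its own profile. Leo1 is a subunit of the PAF1 transcription complex, and Il22ra2 is a soluble decoy for interleukin-22. Among the genes nearest to the mirror image of Nfil3 were Gm45218 (0.185), the glycolytic enzyme Aldoc (0.218) and Nr1d1 (0.241). Gm13387 was the nearest mirror of both Tef (0.134) and Hlf (0.265). The other mirror genes were Vipr2 (0.259), the receptor for the neuropeptide VIP, and Leo1 (0.261) for Tef, and Gm35533 (0.279) and Adamts17 (0.334) for Hlf.

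**Figure D5:**
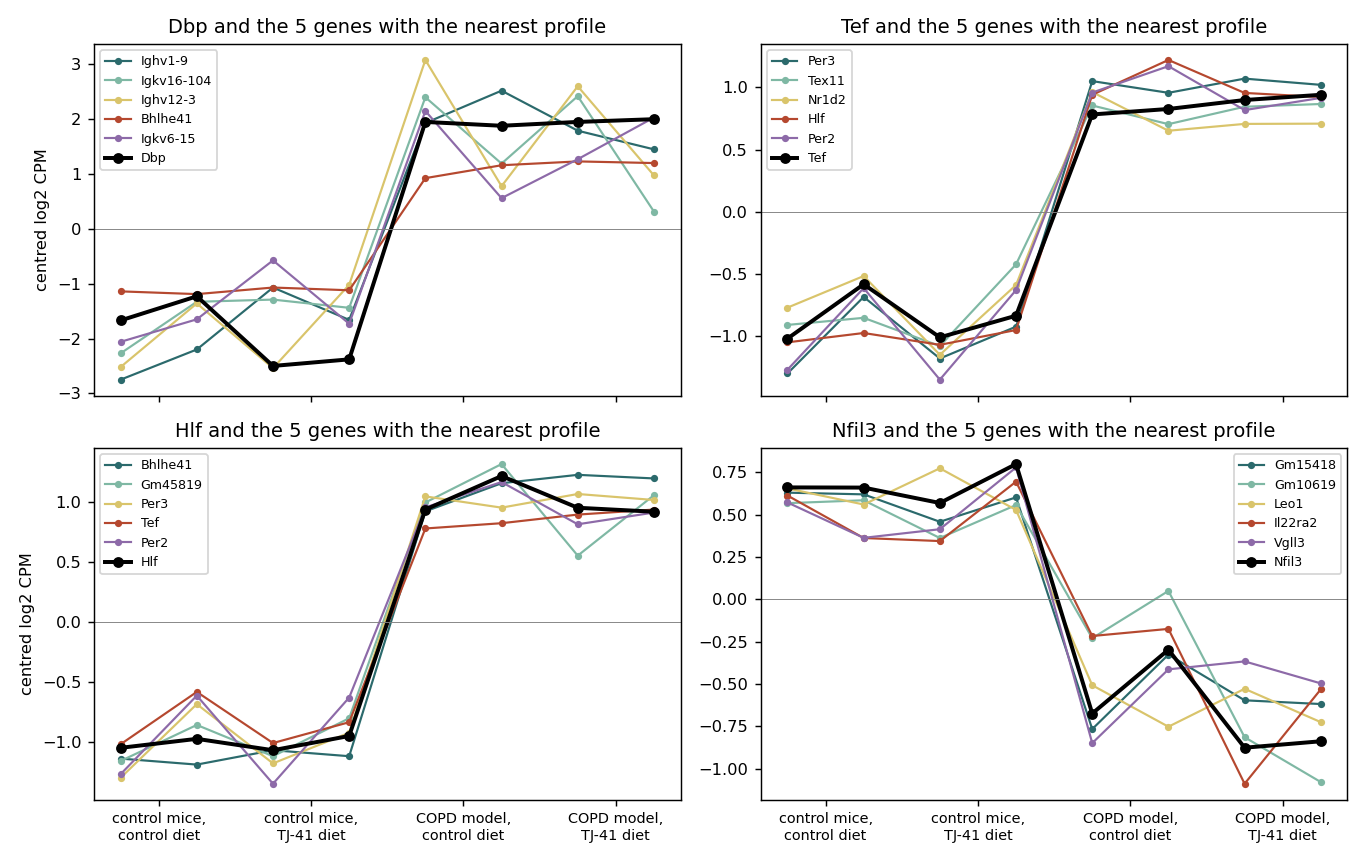
Log2 CPM minus the gene's mean over the 8 libraries for Dbp, Tef, Hlf and Nfil3 (black) and the 5 genes nearest to each, in 4 panels with 2 libraries per group, where lines only join the points of a gene. The genes nearest to Tef and Hlf lie within distances of 0.174 to 0.219, and those nearest to Dbp lie at 0.823 to 0.915.

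Whole lung was measured, so fewer cells of a type and less RNA per cell cannot be told apart. The summed level of 5 macrophage markers was 587 to 719 CPM in control mice and 924 to 1610 CPM in the model, without overlap on either diet, and all 5 had positive differences. The 5 markers of B and plasma cells summed to 219 to 369 CPM in control mice and 420 to 1020 CPM in the model, also without overlap on either diet, with 2 of 5 positive and 1, Jchain, called on the control diet. The endothelial sum was lower in the model, 2760 to 3380 CPM against 2600 to 2900 CPM, without overlap within either diet and with 0 and 1 of 5 positive on the control and TJ-41 diets. The adipocyte sum was higher, 25.5 to 41.8 CPM against 42.7 to 86.8 CPM. Heart muscle markers went in opposite directions, 346 to 432 CPM in control mice against 453 to 588 CPM in the model on the control diet, and 311 to 464 CPM against 217 to 264 CPM on the TJ-41 diet, and within the model they were lower on TJ-41 without overlap. Under TJ-41 alone, the sums of alveolar type 2 and type 1 markers were higher in the model and those of airway and of fibroblast and smooth muscle markers lower, each without overlap. No marker in these lists was at 0 in any library, and their part in the levels of the 4 genes was not tested.

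Between the diets in control mice, where Dbp had its largest diet difference, the sums of alveolar type 2 markers (16000 to 18100 CPM against 19600 to 22900 CPM on the control diet), type 1 markers and T and natural killer cell markers were lower on TJ-41, and that of B and plasma cells was higher, each without overlap. Their part in the difference was not tested. The 2 libraries of the model on the control diet stood further apart than those of other groups, with an SD of 0.80 for the log2 difference of replicates over genes, beside 0.39 to 0.47 elsewhere.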

How the data were processed

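RNA was extracted from lung tissue by the authors with a column kit, and 8 libraries were sequenced. The authors deposited whole-number read counts per Ensembl gene for each library without normalization. HISAT2, edgeR and the build mm10 are named in the submitters' processing notes, and CLC Genomics Workbench is named in the study's methods. The counting program, the strand setting, the annotation release and the handling of multi-mapping reads are not given in the sources used here. The labels write the diet as TJ41 in the title and as TJ4 in another field, which were taken as the same diet. The methods describe the LPS schedule in 2 ways, so it is not detailed.

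Of 52636 gene identifiers, 52489 were matched in GENCODE M21, which gave symbols, coordinates and exon lengths. The analysis used edgeR 4.0.16 under R 4.3.3, after filterByExpr (at least 10 counts, in total at least 15), TMM normalization, and the quasi-likelihood test on the means of the 4 groups with 4 residual degrees of freedom. The false discovery rate was by the Benjamini-Hochberg method over all 20546 genes tested. Standard errors were taken as the fold change over the root of its F statistic, and log2 CPM used a prior count of 2. The edgeR and DESeq2 fits were tested on simulated counts, and the other steps were not. Total counts ran from 18767295 to 20888042, the common biological coefficient of variation was 0.208, and the variance between replicates was 11 to 80.2 times the counting variance, so no library was a copy of another. Correlations of replicate differences between groups ran from -0.234 to 0.108. These values showed no clear pairing by replicate number but cannot exclude one.

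The 4 genes, the gene lists and the tests were chosen with earlier results of these data known. Genes named were the 4 members, the 5 nearest and 3 mirror profiles of each, genes called in either comparison of the model with control mice for each pathway list or else its highest and lowest on the control diet, and genes sharing exon bases with a member, and 1 listed gene is not reported here by name. The lists were core clock genes, D-box target genes, rhythmic output genes, C/EBP genes, natural killer and innate lymphoid cell genes, and markers of 12 cell types. Alternatives were DESeq2 1.42.0, RLE factors, library size alone, 2 other filters, the false discovery rate alone, only the 2 groups compared, a replicate block and leaving out each library. Promoter sequences were from RefSeq on GRCm38.p6. Protein sequences were not used here.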

Additional observations from a re-analysis of the deposited data

How the results depend on the processing

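Over the alternatives, Dbp, Tef, Hlf and Nfil3 kept their direction in the COPD mice model relative to control mice, with log2 ranges of 3.15 to 3.6, 1.39 to 1.82, 1.96 to 2.24 and -1.35 to -0.97 on the control diet and of 4.38 to 4.49, 1.76 to 1.93, 1.90 to 2.01 and -1.67 to -1.45 for TJ-41. In control mice, where the diet differences of Tef, Hlf and Nfil3 were near 0, their signs turned. Hlf was at -0.012 with library size alone and at -0.0043 with only the 2 groups compared, and leaving out 1 library gave -0.053 to 0.05 for Hlf, -0.34 to 0.094 for Tef and -0.089 to 0.13 for Nfil3. The diet effect of Hlf in the model minus that in control mice ran from -0.28 to 0.0057 with 1 library left out. Dbp was the 1 member that DESeq2 called for the diet in control mice, and the range for its difference between the diet effects was 0.84 to 1.28 (adjusted p 0.1 to 1.0, edgeR or DESeq2).

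Counts of genes called moved more. For the model on the control diet, 25 genes were called, 174 with DESeq2, 147 with every gene of at least 1 count, and 3 to 1343 with 1 library left out, the lowest without replicate 1 of the control mice on that diet and the highest without replicate 1 of the model on it. On the TJ-41 diet, 16 genes became 125 with DESeq2, 89 with every gene of at least 1 count, 248 with only the 2 groups compared, and 2 to 168 with 1 library left out. Members called ran from 1 to 4 with 1 library left out on both diets. For the diet in control mice, 0 genes (336 at an unadjusted p under 0.05) became 10 with DESeq2 and 5 with only the 2 groups compared. For the diet in the model, 1 gene became 14 with DESeq2, 2 with every gene of at least 1 count, 0 with only the 2 groups compared, 0 with the replicate block and 0 to 728 with 1 library left out, the highest without replicate 1 of the control diet. For the difference between the diet effects, 0 genes (672 at an unadjusted p under 0.05) became 17 with DESeq2, 6 with every gene of at least 1 count and 0 to 14 with 1 library left out. The cause of these moves was not tested. The replicate block changed no call of the 4 members, and among the core clock genes Npas2 was not called with it on either diet, while Per2 was called on the TJ-41 diet. The replicate numbers did not show pairing (correlations of -0.234 to 0.108). Where a group was left with 1 library, that library was assumed to vary like the other groups.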
